A study of Homo sapiens with 4 samples.

Results

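The genes described here build the contacts between neighbouring epithelial cells, namely classical cadherins and catenins, desmosomal proteins, tight junction proteins, apical polarity proteins and connexins. They were picked by symbol as a set of 37 genes, and each of the 37 matched 1 of the 33694 genes in the count matrices. All samples were OVCA420 cells, an epithelial ovarian cancer line cultured in DMEM with FBS. Cells were left without TGF-β1 (Ctrl) or received it at 10 ng/mL for 1, 3 or 7 days, and 1 scRNA-seq library was made at each time point. TGF-β1 was renewed every few days, starts were staggered so that collection coincided, and cells near confluence were passaged, though not shortly before collection. The labels name no other treatment and no genetic change. The single line and the single library per time point limit these data as a model, since no difference between time points can be tested and a difference between libraries cannot be told apart from treatment time.

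Counts of unique molecular identifiers (UMIs, each standing for 1 captured RNA molecule) were analysed in 569 to 937 retained cells per library, 3144 in all, with medians of 30270 to 43553 UMIs per cell. The matrices held here cover 3170 of the 10710 listed barcodes, so sums describe part of each library. Levels are CPM, a gene's summed UMIs scaled to a library total of 1000000 UMIs, and their 95% intervals are exact Poisson limits. The kit counts molecules at their 3′ ends, so that gene length was not used when levels of different genes were set side by side. Log2 ratios carry exact conditional 95% intervals, and all intervals cover counting error only. Of 8 epithelial and ovarian markers, 7 had UMIs in every library, with a summed level of 3774 to 5483 CPM. *EPCAM* was at 296.7 to 361 CPM and *KRT8* stayed within 2-fold of Ctrl. *KRT7* was 2.54- to 3.12-fold higher at each time point and *KRT18* 2.02-fold higher at 1-day, while *KRT19* was 2.27-fold and 2.03-fold lower at 3-day and 7-day. *MUC16* had 89 UMIs in Ctrl and 4 to 14 after treatment, *PAX8* had 4 to 10 per library and *WT1* had none. The part of these marker differences in the results on junction genes was not tested. Summed markers of other cell types stayed at or below 5.40 CPM (endothelial list of 3 genes, 0.311 to 5.40 CPM, fibroblast list of 3 genes, 0.276 to 1.37 CPM, immune list of 4 genes, 0 to 0.233 CPM). Libraries shared 1 to 7 of the analysed barcodes pairwise. G1 cells made up 27.2% of the Ctrl library and 73.1%, 49.7% and 41.0% of the 1-day, 3-day and 7-day libraries, so values among G1 cells are given beside the main results.

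Adherens junctions join cells through classical cadherins, which bind each other across the gap between cells. These cadherins bind p120-catenin and hold actin through β- and α-catenin. Desmosomes use desmogleins and desmocollins, tied to keratin filaments by plakoglobin, plakophilins and desmoplakin. Tight junctions seal the space between cells with claudins and occludin, anchored by ZO scaffold proteins. Gap junctions are channels of connexins that pass small molecules between cells. In an epithelial-mesenchymal transition (EMT), loss of E-cadherin and gain of N-cadherin are the textbook changes at these contacts, and TGF-β1 is a standard inducer.

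Of the 37 genes, 32 reached a mean of 2 CPM over the libraries and were counted. A gene was counted as higher or lower when it was at least 2-fold from Ctrl with an interval that left out 0. At 1-day, 8 of the 32 (25.0%) were higher, against 9.55% of all 11461 genes at that level, and 4 (12.5%) were lower, against 9.70%. At 3-day, 5 (15.6%) were higher and 3 (9.38%) lower, against 10.4% and 7.02% of all genes. At 7-day, 5 (15.6%) were higher and 2 (6.25%) lower, against 12.2% and 6.42%. Apart from the share higher at 1-day, these shares lay near those of all genes. With 32 genes each count is small, and no result about the set is read from them. The set was chosen with earlier results of these data known. By median the 32 genes were not lower than Ctrl. Their median log2 ratio to Ctrl was 0.46 at 1-day, 0.33 at 3-day and 0.25 at 7-day, where the median of all genes counted was -0.07, 0.02 and 0.09.

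Timing differed between genes. Between 1-day and 3-day none of the 32 genes was at least 2-fold higher, against 5.25% of all genes. In the same step 2 of them were lower (*PPL* and *EVPL*), against 3.31%. Between 3-day and 7-day, 1 was higher (*TJP3*), against 1.70%, and none was lower, against 1.25%. Of the 32 genes, 14 had their highest level at 1-day, 9 at 7-day, 7 in Ctrl and 2 at 3-day. The library with the highest level was not counted over all genes, so this is no result about the set. Over the time course, 5 genes were past 2-fold at each of the 3 time points (*CDH3*, *DSC2* and *GJA1* higher, *PPL* and *TJP3* lower). A further 2 were past it at a pair of time points, 8 at a single one and the remaining 17 at none. These counts were not taken over all genes either, so no result about the set is read from them.

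**Figure D1:**
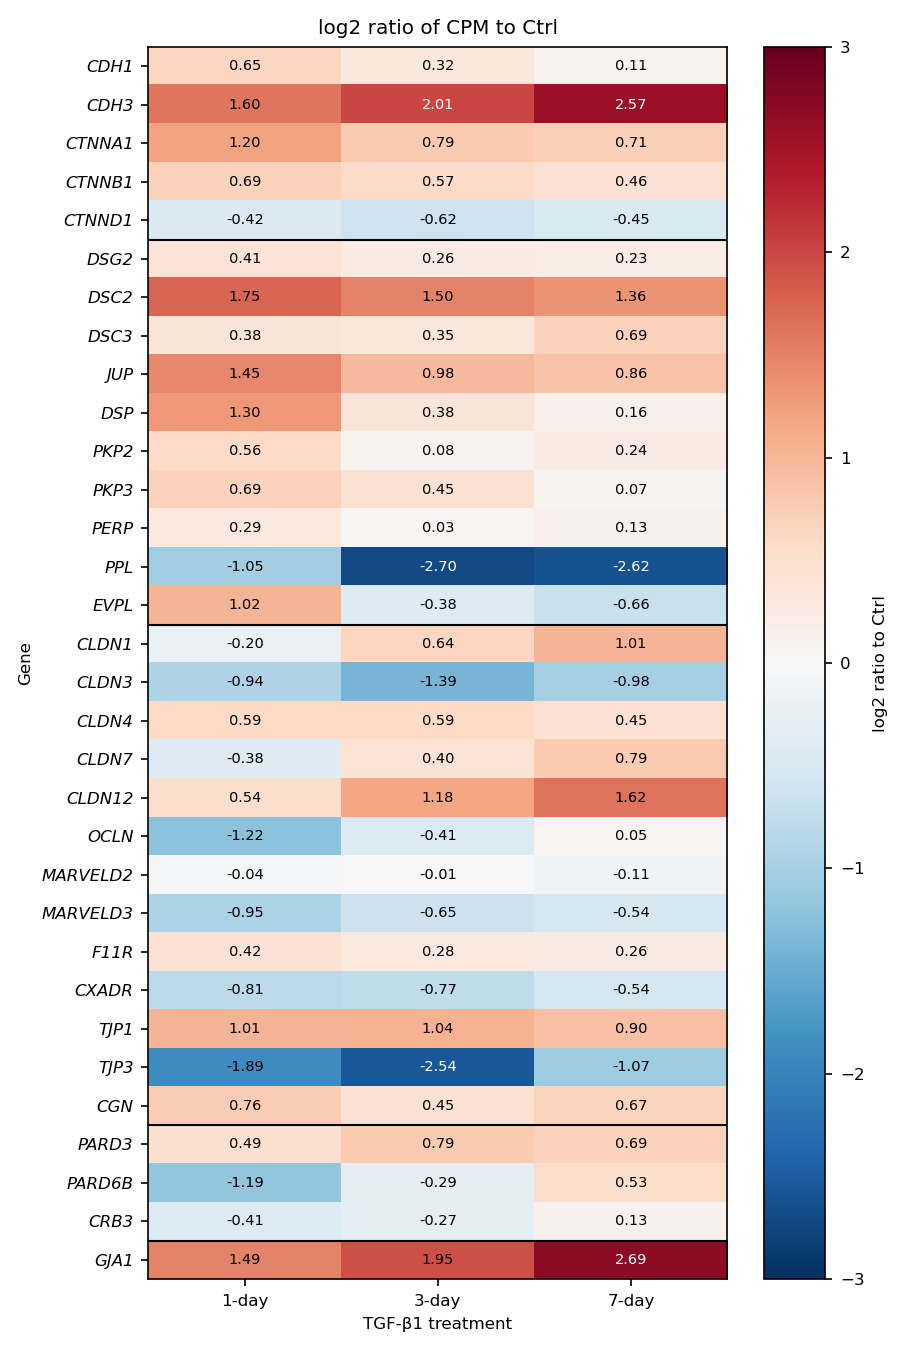
Log2 ratio of CPM to Ctrl (color and number) for the 32 junction genes counted, in rows, at 1-day, 3-day and 7-day of TGF-β1, in columns, with lines between junction types in the order adherens, desmosome, tight, polarity and gap. *CDH1* stays between 0.11 and 0.65, *CDH3* and *GJA1* reach 2.57 and 2.69 at 7-day, and *PPL* and *TJP3* are below -1 in each column.

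Sequences before the start sites of 5 genes that passed the 2-fold limit are shown, so that their base composition and the E-box letters CACCTG or CAGGTG, which Snail and ZEB factors are known to bind, can be seen. *GJA1*, *CLDN1* and *DSC2* were higher and *TJP3* and *CLDN3* lower than Ctrl at one or more time points. The bases come from RefSeq (GRCh38.p14), run 5′ to 3′ on the gene's strand and stop at the first base of the GENCODE 44 gene. The E-box is in capitals.
GJA1, chr6:121435396-121435594, + strand: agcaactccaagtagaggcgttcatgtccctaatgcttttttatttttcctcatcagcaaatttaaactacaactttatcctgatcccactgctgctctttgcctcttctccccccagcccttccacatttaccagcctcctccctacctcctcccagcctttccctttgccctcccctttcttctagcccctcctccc
CLDN1, chr3:190322447-190322696, - strand: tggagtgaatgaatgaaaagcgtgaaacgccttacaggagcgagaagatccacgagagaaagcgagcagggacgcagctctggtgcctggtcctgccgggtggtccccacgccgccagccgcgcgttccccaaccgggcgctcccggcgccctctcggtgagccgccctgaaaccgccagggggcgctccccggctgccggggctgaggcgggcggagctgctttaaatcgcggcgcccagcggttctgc
DSC2, chr18:31102523-31102671, - strand: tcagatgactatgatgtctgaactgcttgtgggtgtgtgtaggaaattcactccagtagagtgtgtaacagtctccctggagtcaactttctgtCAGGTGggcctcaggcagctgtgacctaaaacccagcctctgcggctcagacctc
TJP3, chr19:3708134-3708361, + strand: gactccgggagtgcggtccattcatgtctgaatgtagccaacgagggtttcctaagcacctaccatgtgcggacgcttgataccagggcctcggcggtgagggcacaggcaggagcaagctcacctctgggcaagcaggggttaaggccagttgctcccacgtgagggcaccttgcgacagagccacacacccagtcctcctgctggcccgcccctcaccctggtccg
CLDN3, chr7:73770271-73770520, - strand: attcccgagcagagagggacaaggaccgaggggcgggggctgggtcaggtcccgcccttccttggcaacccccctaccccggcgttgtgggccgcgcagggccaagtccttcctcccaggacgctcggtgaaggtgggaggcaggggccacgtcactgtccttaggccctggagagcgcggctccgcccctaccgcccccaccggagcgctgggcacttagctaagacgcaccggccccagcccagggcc

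CACCTG and CAGGTG are each other's reverse complement, so that a search for both reads both strands. In the 250 bases before any listed start site, 9 of the 25 junction genes in the table held a match (36.0%), against 20.6% of all 27305 genes. The 9 were *DSG2*, *DSC2*, *JUP*, *DSP*, *CLDN7*, *OCLN*, *TJP1*, *TJP3* and *CRB3*, which were higher, lower and within 2-fold of Ctrl. A gene with more start sites has more windows for a match. By start site, 10 of the 37 listed for the 25 genes held a match (27%), against 17.5% of all 35116. In *TJP3* the match was 7 bases before its second listed start site (-7), not in the window printed. The other 12 genes, which include *CDH1* and *CDH3*, were not in the table. A match is a description of letters and not a measured binding site.

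E-cadherin, N-cadherin and P-cadherin are encoded by *CDH1* (chromosome 16, 68737292 to 68835537), *CDH2* (chromosome 18, 27932879 to 28177946) and *CDH3* (chromosome 16, 68636189 to 68727468, next to *CDH1*). *CDH1* had a level of 75.7 CPM in Ctrl, then 119, 94.7 and 81.7 CPM in the 1-day, 3-day and 7-day libraries. It was thus above Ctrl at each time point, most at 1-day (log2 ratio 0.65, 95% interval 0.57 to 0.72), and by 0.11 (0.02 to 0.20) at 7-day. The small 7-day value varied with the processing, from 0.05 with median-of-ratios scaling to 0.24 among G1 cells. *CDH3* started from 12.2 CPM and reached 37.1, 49.1 and 72.3 CPM in the treated libraries, a 5.93-fold higher level at 7-day (log2 ratio 2.57, 2.40 to 2.73). Each step was upward and larger than its counting interval. *CDH2* stayed low, with 9 and 7 UMIs in the Ctrl and 1-day libraries, then 52 and 61 in the 3-day and 7-day ones (0.300, 0.212, 1.62 and 2.40 CPM).

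Within the UMIs of these 3 cadherins, *CDH1* made up 85.8% in Ctrl and 76.1%, 65.1% and 52.2% at 1, 3 and 7 days. *CDH3* took the rest almost alone, with 13.8%, 23.8%, 33.8% and 46.2%. *CDH2* made up 0.340%, 0.136%, 1.11% and 1.54% (1.18% to 1.97%) in the same order. Among these 3 genes, the make-up therefore went from mostly E-cadherin to near-equal parts of E- and P-cadherin RNA, at a higher sum (88.2 CPM in Ctrl, 156, 145 and 156 CPM after treatment). N-cadherin RNA remained a small part. K-cadherin (*CDH6*), which is outside the set and this sum, was above both *CDH1* and *CDH3* in each treated library, with 108 CPM at 7-day.

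**Figure D2:**
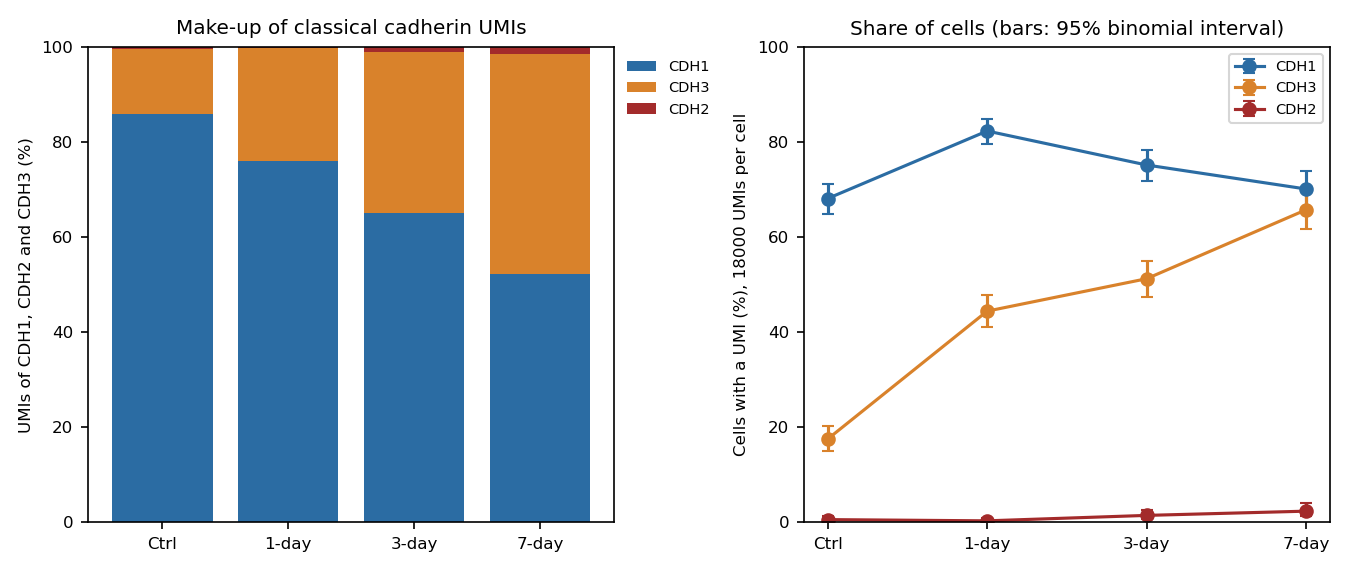
Left, percent of the UMIs of *CDH1*, *CDH2* and *CDH3* that each gene holds, per library. Right, percent of cells with at least 1 UMI after each cell was thinned to 18000 UMIs, with exact binomial 95% intervals, where *CDH3* goes from 17.5% to 65.8% of cells and *CDH2* does not exceed 2.37%.

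To compare cells at equal depth, each was thinned to 18000 UMIs. Shallower cells were dropped (89 in Ctrl, then 37, 28 and 20 in time order). *CDH1* was then detected in 68.1% of Ctrl cells (64.9% to 71.3%) and in 82.3%, 75.2% and 70.1% of cells at 1, 3 and 7 days (82.6%, 92.7%, 90.1% and 88.0% before thinning). The 7-day share (66.1% to 73.9%) overlapped that of Ctrl. *CDH3* was detected in 17.5%, 44.4%, 51.3% and 65.8% of cells (27.4%, 61.9%, 77.6% and 86.8% before thinning), with no overlap of intervals between Ctrl and any treated library. At 7-day, 265 of 549 cells held UMIs of both *CDH1* and *CDH3*, 120 of *CDH1* alone, 96 of *CDH3* alone and 68 of neither. No cell type that should lack these genes was in the libraries, so the shares of cells have no estimate of background from free RNA.

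*CDH2* was found in 8 Ctrl, 5 1-day, 20 3-day and 29 7-day cells before thinning, and the 10 cells with most of it held 60.7% of its 7-day UMIs. After thinning, 13 of 549 7-day cells (2.37%, 1.27% to 4.01%) had a *CDH2* UMI, and 10 of these also had a *CDH1* UMI. Cells with both made up 1.82% of these 7-day cells, near the 1.66% that would hold both if the genes were unrelated. The log2 ratio of *CDH2* to Ctrl at 7-day was 3.00 over all cells. It was 1.92 in the earlier and 5.38 in the later cells of an even split by barcode order, so its size is not well determined by these counts.

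**Figure D3:**
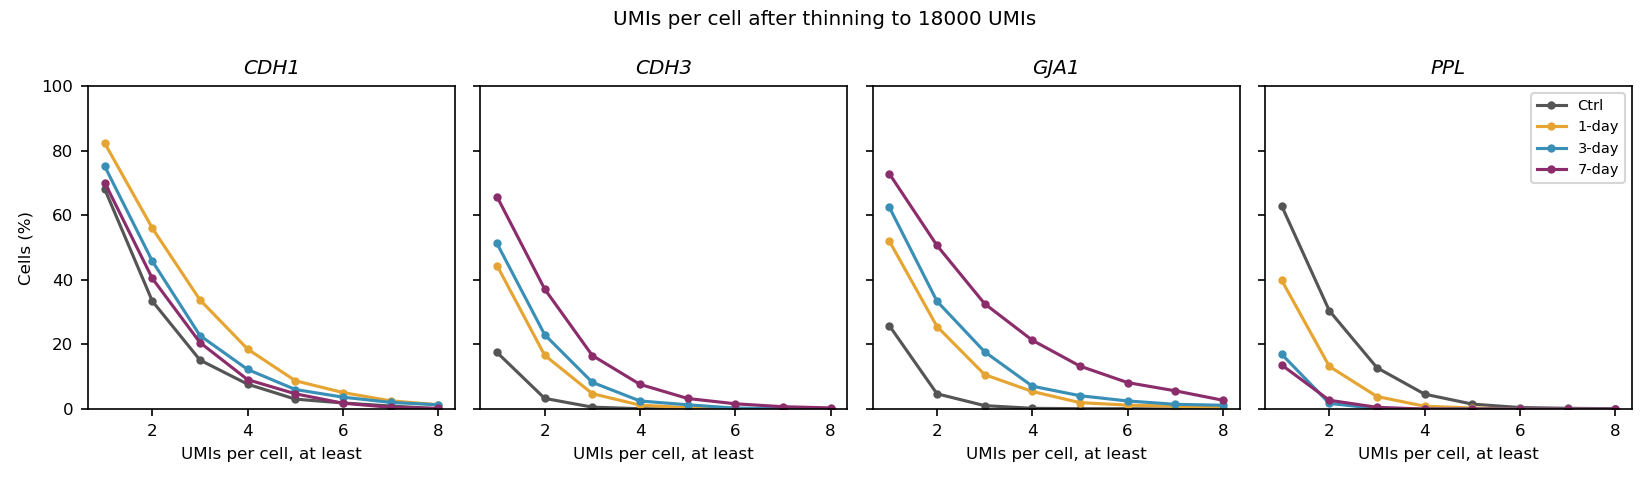
Percent of cells (vertical axis) with at least the number of UMIs on the horizontal axis, for *CDH1*, *CDH3*, *GJA1* and *PPL* in each library, after thinning to 18000 UMIs per cell. At 1 or more UMIs, the shares for *CDH3* and *GJA1* are higher and those for *PPL* lower at each later time point, and that for *CDH1* is highest at 1-day.

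β- and α-catenin link cadherins to actin. α-catenin (*CTNNA1*) had 71.5 CPM in Ctrl and 165, 124 and 117 CPM after treatment, and was at least 2-fold higher only at 1-day (log2 ratio 1.20, 1.13 to 1.28). β-catenin (*CTNNB1*), which also carries the Wnt signal, had the highest level of the catenins in every library, with 139, 224, 207 and 192 CPM. p120-catenin (*CTNND1*), which keeps cadherins at the cell surface, was below Ctrl at each time point, with 95.7, 71.2, 62.2 and 70.0 CPM. The 3 catenins thus differed in direction. *CTNND1* made up 31.2% of their summed UMIs in Ctrl and 15.5% at 1-day, and *CTNNA1* made up 23.3% and 35.8%. *CTNND1* overlaps other protein-coding genes of the annotation on its strand, so its counts are less certain.

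The desmosomal cadherins lie in a cluster on chromosome 18, with *DSC3* from 30989365, *DSC2* to 31102522, *DSG3* from 31447741 and *DSG2* to 31549008. Desmoglein 2 (*DSG2*) was the main one in every library, with 118 CPM in Ctrl and 157, 142 and 139 CPM at 1, 3 and 7 days. Desmocollin 2 (*DSC2*), its partner in simple epithelia, had 7.23 CPM in Ctrl, then 24.3, 20.4 and 18.5 CPM. It was 3.35-fold higher at 1-day (log2 ratio 1.75, 1.53 to 1.97) and still 2.56-fold higher at 7-day (1.36, 1.12 to 1.60). The share of desmosomal cadherin UMIs on *DSC2* was 5.66% in Ctrl, 13.2% at 1-day and 11.6% at 7-day. *DSG3* and *DSC3*, which are typical of stratified epithelium, had 9 to 19 and 47 to 67 UMIs per library. *DSC3* just passed the level limit, with a mean of 2.03 CPM, and *CDH2* with a mean of 1.13 CPM was the nearest gene below it.

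In the desmosomal plaque, plakoglobin (*JUP*), which also binds classical cadherins, had 159 CPM in Ctrl and 436, 315 and 289 CPM in the treated libraries. Its log2 ratio was 1.45 at 1-day and 0.86 (0.81 to 0.91) at 7-day, so that the level stayed above Ctrl. After thinning, the median cell of the Ctrl library held 2 *JUP* UMIs, and that of the treated libraries 7, 5 and 4. Desmoplakin (*DSP*), the link to keratin filaments, was at 53.9, 133, 70.1 and 60.3 CPM. Its 1-day log2 ratio of 1.30 (1.22 to 1.38) was followed by 0.38 at 3-day and 0.16 (0.06 to 0.26) at 7-day, a level that had come back close to that of Ctrl. Plakophilins 2 and 3 (*PKP2*, *PKP3*) and *PERP* were each highest at 1-day and within 2-fold of Ctrl throughout. *PERP* is a desmosomal membrane protein and p53 target. It had the highest level of the set's desmosome genes in Ctrl and at 7-day (274 and 300.4 CPM).

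Periplakin (*PPL*) and envoplakin (*EVPL*), plakins that can dimerise and that join desmosomes to the cornified envelope in stratified epithelium, differed from each other. *EVPL* was highest at 1-day, like *JUP*, *DSP*, *PKP2*, *PKP3* and *PERP*, and *PPL* was highest in Ctrl. *PPL* went from 62.6 CPM in Ctrl through 30.3 CPM after 1 day to 9.64 and 10.2 CPM after 3 and 7 days. It was 6.16-fold lower at 7-day (log2 ratio -2.62, -2.82 to -2.43), and the step from 1-day to 3-day (-1.65, -1.84 to -1.47) was the largest. The share of thinned cells with a *PPL* UMI was 62.9% in Ctrl and 39.9%, 17.0% and 13.7% at 1, 3 and 7 days (78.3%, 57.5%, 32.6% and 30.9% before thinning). *EVPL* was at 33.1, 67.3, 25.5 and 20.9 CPM, which is above Ctrl at 1-day (log2 ratio 1.02, 0.92 to 1.13) and below it at 7-day (-0.66, -0.82 to -0.51). Summed over the 12 desmosome genes, the level was 814 CPM in Ctrl and, in time order, 1346, 994.5 and 954 CPM after treatment.

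**Figure D4:**
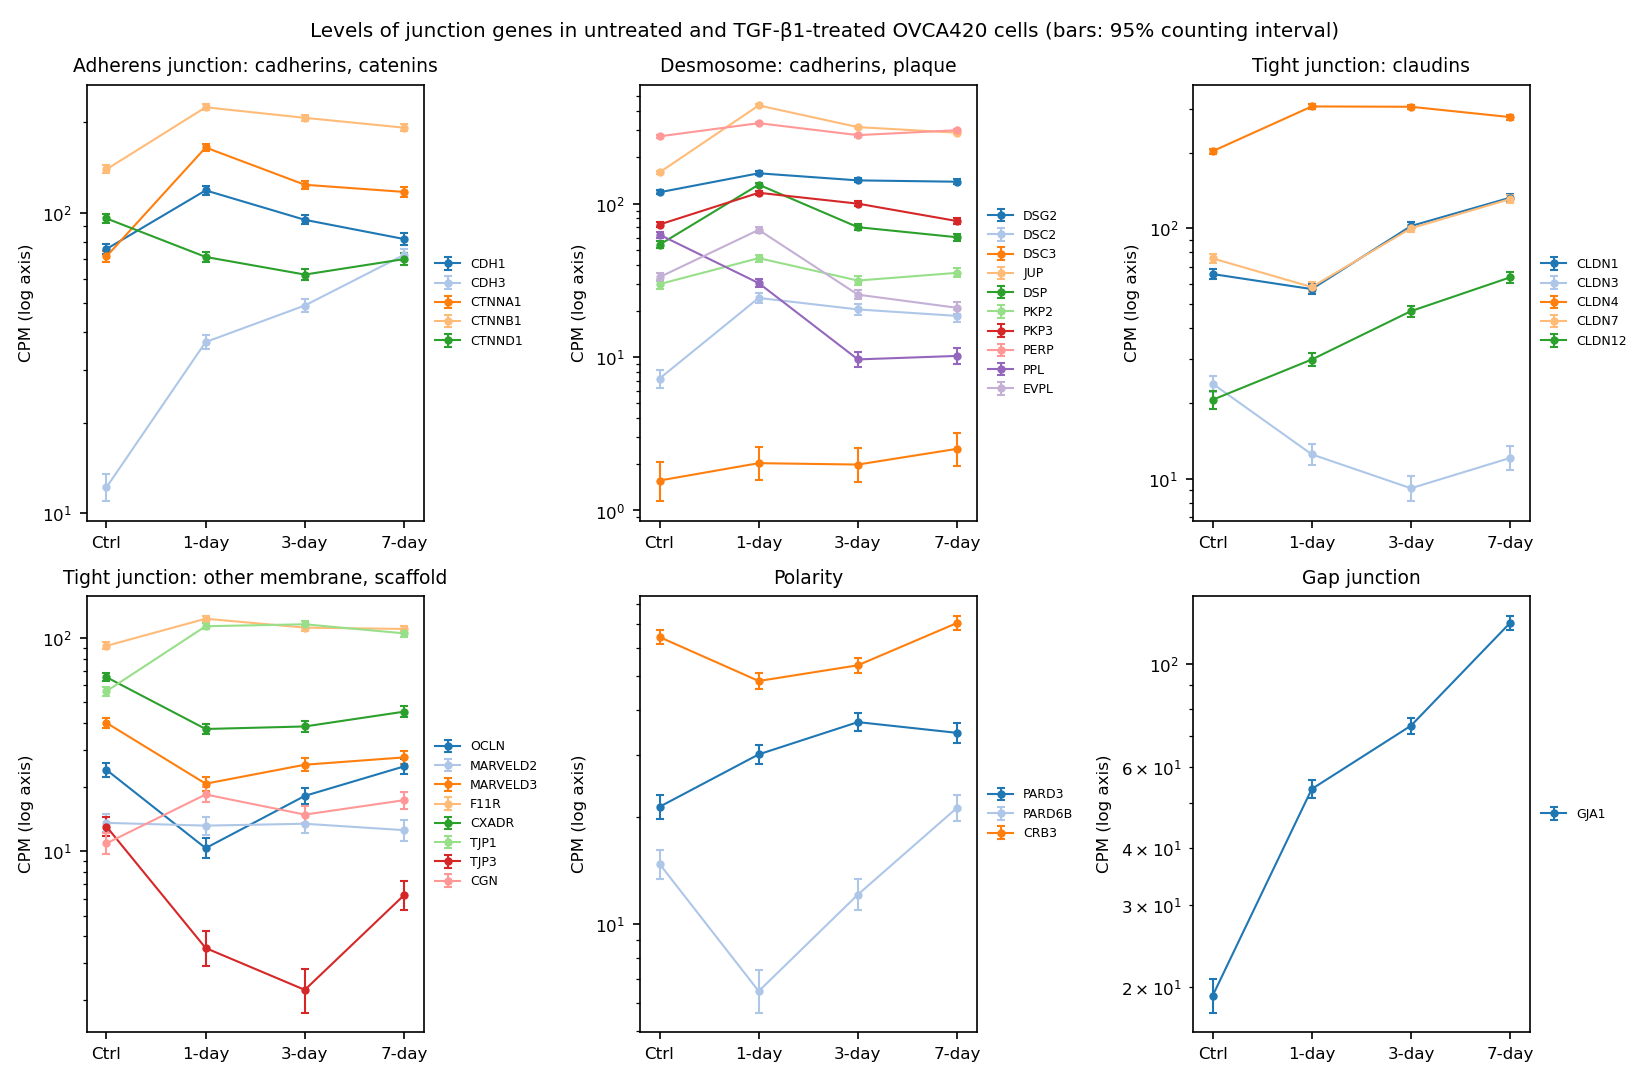
CPM on a log axis for each of the 32 junction genes counted, by junction type, in Ctrl and at 1-day, 3-day and 7-day, with exact Poisson 95% intervals as bars. Desmosome genes such as *JUP* and *DSP* peak at 1-day. *CLDN1*, *CLDN7*, *OCLN* and *PARD6B* are among the genes lowest at 1-day, and *GJA1* increases from 19.1 to 123 CPM.

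Claudins form the seal of the tight junction, and *CLDN3*, *CLDN4* and *CLDN7* are commonly abundant in ovarian carcinoma. *CLDN4* was the main claudin, with 203 CPM in Ctrl and 306, 306 and 278 CPM at 1, 3 and 7 days, within 2-fold of Ctrl. *CLDN3*, its neighbour on chromosome 7, was lower after treatment, with 23.9 CPM in Ctrl and 12.5, 9.15 and 12.1 CPM. The limit was passed at 3-day (log2 ratio -1.39, -1.59 to -1.19) and nearly so at 1-day and 7-day (-0.94 and -0.98). Among G1 cells *CLDN3* was lower still, at -1.40, -2.58 and -1.98. The pair thus lay on opposite sides of Ctrl.

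*CLDN1* had 65.6 CPM in Ctrl and 57.1, 102 and 132 CPM after 1, 3 and 7 days. It was slightly below Ctrl at 1-day (log2 ratio -0.20, -0.29 to -0.11) and 2.02-fold higher at 7-day (1.01, 0.93 to 1.09), just past the limit, and at 0.96 with median-of-ratios scaling. *CLDN7* had much the same course, with 75.8, 58.2, 99.9 and 131 CPM. *CLDN12*, an unusual claudin without the common scaffold-binding tail, was at 20.6, 29.9, 46.6 and 63.6 CPM and was 3.08-fold higher at 7-day (1.62, 1.49 to 1.76). In GENCODE 44 it overlaps *GTPBP10*, *PTTG1IP2* and *CDK14* on the same strand, so this value is less certain, and *CLDN7* also overlaps another gene. Claudins together were at 389 CPM in Ctrl and 464, 563 and 617 CPM at 1, 3 and 7 days. The sum of these 6 claudins was thus higher at 7-day, while *CLDN3* among them was lower. Of the counted claudins outside the set, *CLDN2* was past 2-fold lower at 7-day and *CLDN18* past 2-fold higher. *CLDN18* was at 19.0 CPM in Ctrl, 2.49 CPM at 1-day and 47.6 CPM at 7-day.

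Of the other membrane proteins of tight junctions, occludin (*OCLN*) had 24.1 CPM in Ctrl and 10.4, 18.2 and 25.0 CPM after 1, 3 and 7 days. Its level was 2.33-fold lower at 1-day (log2 ratio -1.22, -1.41 to -1.03) and within counting error of Ctrl at 7-day (0.05, -0.10 to 0.21). *OCLN* has a pseudogene copy, *OCLNP1*, in the annotation. *MARVELD3*, a relative of occludin, was at 40.0, 20.8, 25.5 and 27.6 CPM. The virus receptor *CXADR* was at 65.6, 37.5, 38.5 and 45.2 CPM. Both were below Ctrl at each time point by less than 2-fold. *MARVELD2* (tricellulin, found where 3 cells meet) had the smallest spread of all 32 genes, from 12.6 to 13.6 CPM. *F11R* (JAM-A) was at 92.0 to 123 CPM and overlaps another protein-coding gene of the annotation on its strand.

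The scaffolds ZO-1 and ZO-3 went opposite ways. ZO-1 (*TJP1*) was at 56.4 CPM in Ctrl and 114, 116 and 105 CPM at 1, 3 and 7 days, with a log2 ratio of 1.01 (0.93 to 1.10) at 1-day, 1.04 (0.96 to 1.13) at 3-day and 0.90 at 7-day. These values lie at the 2-fold limit, and the 1-day value was 0.97 in the earlier cells of the split by barcode order. ZO-3 (*TJP3*), which is restricted to epithelia, was at 13.1 CPM in Ctrl and 3.52, 2.24 and 6.22 CPM. It was 5.83-fold lower at 3-day (-2.54, -2.93 to -2.18) and 2.10-fold lower at 7-day (-1.07, -1.35 to -0.80), with a 2.78-fold higher level at 7-day than at 3-day. Of the UMIs of *TJP1*, *TJP3* and *CGN*, *TJP3* held 16.3% in Ctrl and 1.68% at 3-day. Cingulin (*CGN*), which links ZO proteins to myosin, was at 10.9 to 18.5 CPM, lowest in Ctrl.

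The apical polarity genes stayed within 2-fold of Ctrl with 1 exception. *PARD6B*, a subunit of the PAR complex with atypical protein kinase C, had 14.8 CPM in Ctrl and 6.46, 12.1 and 21.3 CPM in the 1-day, 3-day and 7-day libraries. Its log2 ratio was -1.19 (-1.43 to -0.95) at 1-day and 0.53 (0.34 to 0.71) at 7-day. Like *OCLN*, *CLDN1*, *CLDN7* and *CRB3*, it had its lowest level at 1-day and its highest at 7-day. *PARD3*, the scaffold of that complex, was at 21.4, 30.1, 37.1 and 34.6 CPM, and *CRB3*, the Crumbs protein of the apical membrane, at 64.4, 48.4, 53.6 and 70.6 CPM.

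Connexin 43 (*GJA1*, chromosome 6, 121435595 to 121449727), the gap junction protein of many mesenchymal cells, and *CDH3* had the largest upward 7-day log2 ratios of the 32 genes counted. Their intervals overlapped over all cells, and *CDH3* was the higher among G1 cells. From 19.1 CPM in Ctrl *GJA1* reached 53.6, 73.5 and finally 123 CPM, a 6.43-fold higher level at the end (log2 ratio 2.69, 2.56 to 2.82). Thinned cells with a *GJA1* UMI made up 25.8% in Ctrl and 52.0%, 62.5% and 72.9% at 1, 3 and 7 days (36.1%, 65.7%, 83.5% and 90.9% before thinning). Connexin 26 (*GJB2*) had 14 to 38 UMIs per library. *GJA1* also has a pseudogene copy, *GJA1P1*, in the annotation. Copies of *CTNNA1*, *PERP*, *CLDN7*, *CXADR*, *PARD6B* and *CRB3* are annotated too, so the counts of these genes are less certain as well.

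The 5 genes under the level limit were *CDH2* and *GJB2*, given above, *DSG3* with 9 to 19 UMIs, the plakophilin *PKP1* with 1 to 6 UMIs and the claudin *CLDN6* with 1 to 4 UMIs per library. No course over time is read from these counts, other than the values of *CDH2*.

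A further 74 junction genes outside the set were read for comparison, of which 44 reached the level limit. At 7-day, 8 of the 44 were at least 2-fold higher and 4 lower, at 1-day 8 and 10, and at 3-day 7 and 9. Of all genes counted, 12.2% were higher and 6.42% lower at 7-day, 9.55% and 9.70% at 1-day, and 10.4% and 7.02% at 3-day. The median log2 ratio to Ctrl of the 44 genes was -0.08 at 1-day, 0.131 at 3-day and 0.255 at 7-day. The 3 with the largest 7-day log2 ratio were *CDH6* (K-cadherin), *AMOTL2* (a tight junction protein and YAP regulator) and *PANX1* (pannexin 1). *CDH6* was at 6.30 CPM in Ctrl and 136, 164 and 108 CPM at 1, 3 and 7 days, which is 17.2-fold higher at 7-day. *AMOTL2* was at 9.23, 34.0, 69.6 and 94.4 CPM, and *PANX1* was 2.98-fold higher at 7-day.

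The 3 lowest were *GJB1* (connexin 32), *PVRL3* (nectin-3) and *CLDN2* (a pore-forming claudin). *GJB1* had 579 UMIs in Ctrl (19.3 CPM), 166 at 1-day (5.04 CPM), 15 at 3-day (0.467 CPM) and 3 at 7-day (0.118 CPM), a log2 ratio of -7.35 (-9.63 to -5.80) at 7-day. The connexin UMIs therefore lay on *GJB1* and *GJA1* at like levels in Ctrl and almost wholly on *GJA1* rather than *GJB1* at 7-day. *PVRL3* was at 51.0, 21.9, 14.3 and 11.2 CPM and *CLDN2* at 28.3, 9.01, 9.83 and 8.75 CPM. VE-cadherin (*CDH5*), an endothelial gene below the level limit, had 161 UMIs in Ctrl and 7 to 13 in the treated libraries.

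Since the share of G1 cells differed between libraries, log2 ratios were also taken among G1 cells alone. At 1-day they were 1.53 for *CDH3*, 1.71 for *DSC2*, 1.30 for *JUP*, 1.24 for *DSP* and 1.24 for *GJA1*, against 1.60, 1.75, 1.45, 1.30 and 1.49 over all cells. At 7-day they were 2.90 for *CDH3*, 2.65 for *GJA1*, -2.76 for *PPL* and 0.24 for *CDH1*. The genes past 2-fold at 1-day were all past it among G1 cells too, by *EVPL* least (1.08) and by *TJP3* most (-2.04). The genes that moved most were *CLDN3*, as given above, and *DSC3*, a gene with few UMIs, at 1.87 against 0.69 at 7-day.

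**Figure D5:**
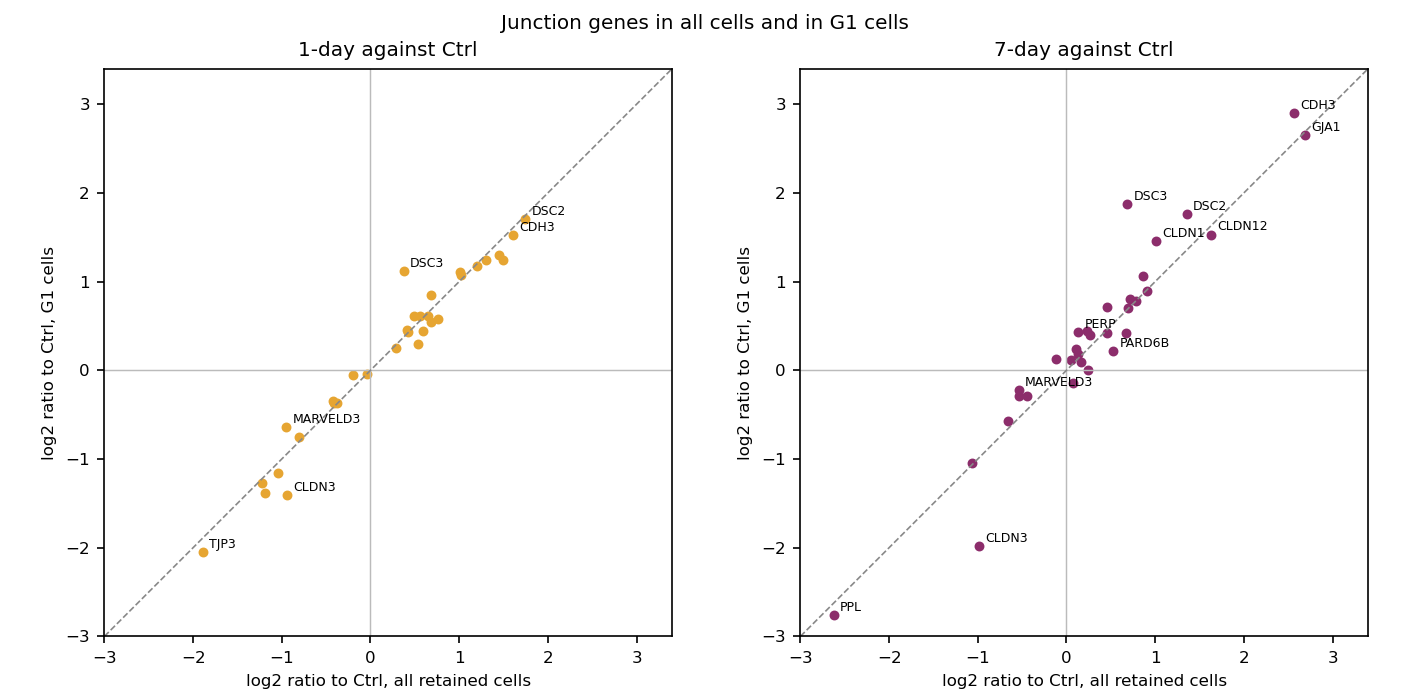
Log2 ratio to Ctrl among G1 cells (vertical axis) against that among all retained cells (horizontal axis) for the 32 junction genes counted, at 1-day and 7-day, with the dashed line marking equal values. The points farthest from the line at 7-day are *CLDN3* (-1.98 against -0.98) and *DSC3* (1.87 against 0.69).

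Across the cells of a library, pairs of junction genes were only weakly related. Spearman's rho over the pairs examined in thinned cells lay between -0.05 and 0.27, with the highest values for *CDH1* and *CLDN4* at 7-day and for *DSP* and *JUP* at 1-day. *CDH1* and *CDH3* had a rho of 0.23 at 7-day. These values describe 549 to 900 cells of 1 library each, with few UMIs per gene and cell, and are no finding.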

How the data were processed

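Single-cell 3′ RNA-seq counts of OVCA420 cells (10x Genomics v3 kit) were analysed from 4 libraries. Per the labels, the authors used Cell Ranger 2.0.1 and GRCh38 (hg38), and the deposited values are raw UMI counts per gene and cell. The matrices held here end within a cell, so that the complete cells before that point were used (941, 945, 712 and 572 for Ctrl, 1-day, 3-day and 7-day). Cells with more than 200 genes and at most 20% mitochondrial UMIs were retained (933, 937, 705 and 569), a limit on mitochondrial UMIs chosen here. Scrublet, run in scanpy 1.11.5, marked 40 cells (1.27%), which were kept in the main values and left out in an alternative.

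UMIs were summed per library (25382817 to 32949874) and scaled to CPM in Python 3.11.15. Exact Poisson, conditional and Clopper-Pearson binomial intervals (95%) came from scipy 1.17.1. With 1 library per time point there was no replicate, so no test was run and no p-value is given. Genes were counted at a mean of at least 2 CPM over the libraries, a fold of at least 2 and an interval leaving out 0. For equal depth, cells were thinned to 18000 UMIs. G1 was called with the cell cycle genes of Seurat 5.3.0. The scripts were tested on simulated data. The members and all gene lists were chosen with earlier results of these data known. All members were described. Of the other junction genes, the 3 with the largest and the 3 with the smallest 7-day log2 ratio among those counted were named. *CDH5*, *CLDN10* and *CLDN18* were added after their values were seen. Sequences came from RefSeq (GRCh38.p14) and positions from GENCODE 44. Alternatives were a mitochondrial limit of 10% or none, doublets left out, median-of-ratios size factors, the mean per-cell CPM, thinned cells, G1 cells, either part of an even split of the cells by barcode order and, for counts, a fold of 1.5 or no level limit.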

Additional observations from a re-analysis of the deposited data

Results flagged for a closer look

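*EVPL* (envoplakin) lay above Ctrl at 1-day and below it at 7-day, with a log2 ratio of 1.02 and -0.66. The difference between the time points was not tested, since each had 1 library. *PPL*, its partner plakin, was below Ctrl at both (-1.05 and -2.62).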

How the results depend on the processing

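No paired analysis was possible because each time point had 1 library and no test was run. With a fold limit of 1.5 in place of 2, more junction genes were counted, by construction: 13 higher and 7 lower at 1-day (8 and 4 at 2-fold), 10 and 6 at 3-day (5 and 3) and 12 and 4 at 7-day (5 and 2). The other 60 of 66 alternative counts stayed within 1.5 times. Of 891 alternative log2 ratios, 783 stayed within the counting interval. None that was past 2-fold in the main values reversed, and 13 others changed sign, among them *DSC3* at 3-day (0.35 to -0.06), *PKP3* at 7-day (0.07 to -0.15) and *MARVELD2* at each time point. Restriction to G1 cells moved most, 45 of 99, and the cause was not tested. Past 2-fold in the main values but under it in one or more alternatives were *EVPL* at 1-day (0.98 to 1.11), *TJP1* at 1-day (0.95 to 1.11), *PPL* at 1-day (-1.16 to -0.96) and *CLDN1* at 7-day (0.96 to 1.46). Under 2-fold in the main values but past it in one or more alternatives were *JUP* at 3-day (0.93 to 1.03) and 7-day (0.78 to 1.07), *CLDN3* at 1-day (-1.40 to -0.85) and 7-day (-1.98 to -0.89), and *DSC3* at 1-day (0.28 to 1.12), 3-day (-0.06 to 1.09) and 7-day (0.58 to 1.87). Median-of-ratios scaling moved ratios by at most 0.085, upward at 1-day (*CDH1* 0.73 against 0.65) and downward at 7-day (*CDH1* 0.05 against 0.11). Depth limited *CDH2*, *DSG3*, *PKP1*, *CLDN6* and *GJB2*.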
